A study of Acomys cahirinus and Mus musculus with 6 samples.

Results

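The 7 genes described here are the MHC class II genes H2-Aa, H2-Ab1 and H2-Eb1, the invariant chain gene Cd74, the peptide-exchange genes H2-DMa and H2-DMb1, and Ciita, which encodes the class II transactivator. They were chosen by name from the 20381 genes of a single-cell RNA table of healing ear punch wounds, and they were followed through the authors' cell types in all 6 libraries. Libraries from wild-type spiny mice (Acomys) had received injections of an ERK inhibitor, an ErbB2 inhibitor, an FGFR1/2/3 inhibitor or the vehicle DMSO from day 12 to day 15. Libraries from CD1 laboratory mice came from wounds implanted on day 10 with micro-beads soaked in recombinant FGF2 and NRG1, or in PBS. Each condition was 1 library, the labels do not say how many animals went into it, and an inhibitor or a factor on a bead can reach every cell type of the wound. A difference below therefore compares libraries, no test was possible, and every 95% interval covers counting error only.

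Class II molecules carry peptides from engulfed proteins to the surface of antigen-presenting cells, where helper T cells read them. Dendritic cells, B cells and activated macrophages are the usual carriers, and in skin the Langerhans cells of the epidermis belong to them. An alpha and a beta chain assemble with the invariant chain, proteases trim that chain in the endosome, and the H2-DM dimer exchanges its last fragment for peptide. CIITA binds no DNA itself but switches on the whole group, and interferon gamma can induce it in cells that otherwise lack class II, such as keratinocytes and endothelium.

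On the mouse genome GRCm38, with the annotation GENCODE vM21, 5 of the genes lie within 197134 bases of chromosome 17. H2-DMa spans 34119541 to 34139101 on the plus strand, H2-DMb1 34153072 to 34160230 on the plus strand, H2-Ab1 34257689 to 34269419 on the plus strand, H2-Aa 34282744 to 34287823 on the minus strand and H2-Eb1 34305867 to 34316674 on the plus strand. Cd74 lies on chromosome 18 (60803848 to 60812652, plus strand) and Ciita on chromosome 16 (10480059 to 10528418, plus strand). H2-DMb1 has a near-identical neighbour, H2-DMb2 (34143307 to 34151555), so the division of counts between them is uncertain. The 3′ end of Ciita lies inside Dexi on the other strand, so reads of this pair could be mixed if counting ignored strand, which no source used here states.

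The libraries held 631 cells (ERK inhibitor), 10632 (ErbB2 inhibitor), 4782 (FGFR inhibitor), 15363 (DMSO), 5104 (FGF2 and NRG1) and 3065 (PBS), with median totals between 3125 and 6915 unique molecular identifiers (UMIs, counted molecules) per cell. Of the 39577 cells, 368 (0.930%) carried a barcode also used in another library, 12 of them among the 1418 cells of cluster 6. Cluster 6, named resident macrophages by the authors, is given by its number because its cells held markers of dendritic cells as well as of macrophages. Levels are given in CPM, the UMIs of a gene per 1000000 UMIs of the same cells, which is a share of counts and not corrected for gene length. The clusters were built from all genes, so levels by cell type are descriptions and not tests.

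Spiny mouse reads carry mouse gene names, and 5345 genes had no UMI in any spiny mouse cell. Among the 31408 spiny mouse cells H2-Aa had 27606 UMIs, Cd74 86783 and H2-DMa 6403, whereas H2-Ab1 had 146 and Ciita 38. H2-Eb1 and H2-DMb1 had none, and whether spiny mouse reads can be assigned to them was not tested. H2-DMb2, the neighbour of H2-DMb1, had 3237 there. The 8169 mouse cells held every gene: 8953 UMIs of H2-Aa, 7358 of H2-Ab1, 4375 of H2-Eb1, 28124 of Cd74, 1269 of H2-DMa, 1273 of H2-DMb1 and 327 of Ciita. In the spiny mouse the sum over the genes is thus nearly all H2-Aa, Cd74 and H2-DMa, and no ratio between the species was taken.

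Most of the counts sat in a few cells. Cluster 6, the dendritic cells of cluster 40 and the B cells held 74.8% (H2-DMa) to 85.6% (H2-Ab1) of a gene's UMIs in the spiny mouse and 80.4% (H2-DMb1) to 91.9% (Cd74) in the mouse. Summed over the 7 genes, cluster 6 reached 16269 CPM with the ERK inhibitor (33 cells), 36888 with the ErbB2 inhibitor (187 cells), 36746 with the FGFR inhibitor (115 cells) and 21103 with DMSO (410 cells). In the mouse it reached 10906 CPM with FGF2 and NRG1 (566 cells) and 18054 with PBS (107 cells).

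Dendritic cells had 22016 (16 cells), 25370, 18810 and 12393 CPM of the summed genes in the ERK inhibitor, ErbB2 inhibitor, FGFR inhibitor and DMSO libraries, against 19115 with FGF2 and NRG1 and 8882 with PBS (14 cells). B cells had 35624 CPM in the ERK inhibitor library, where there were 3 of them, 18160 with the ErbB2 inhibitor, 22606 with the FGFR inhibitor and 10182 with DMSO, and in the mouse 24016 with FGF2 and NRG1 and 29126 with PBS (14 cells). Among types of at least 15 cells, which leaves out the B and dendritic cells of the PBS library, cluster 6 ranked highest in the ErbB2 inhibitor, FGFR inhibitor, DMSO and PBS libraries, dendritic cells in the ERK inhibitor library and B cells in the FGF2 and NRG1 library. In these libraries the 95% counting interval of the highest type did not overlap that of the next.

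Apart from clusters 7 and 45, the other types were far lower, and the median over all types of a library ran from 60.2 CPM (PBS) to 220 CPM (DMSO). The lowest type of at least 15 cells had 5.18 CPM in the ERK inhibitor library (endothelium), 46.3 with the ErbB2 inhibitor (IFE basal, the basal epidermis), 29.9 with the FGFR inhibitor (IFE suprabasal), 47.8 with DMSO, 29.5 with FGF2 and NRG1 and 19.2 with PBS (each time the hair follicle layer labelled IRS). The plot of levels by cell type shows the gap between the antigen-presenting types and the rest.

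**Figure D1:**
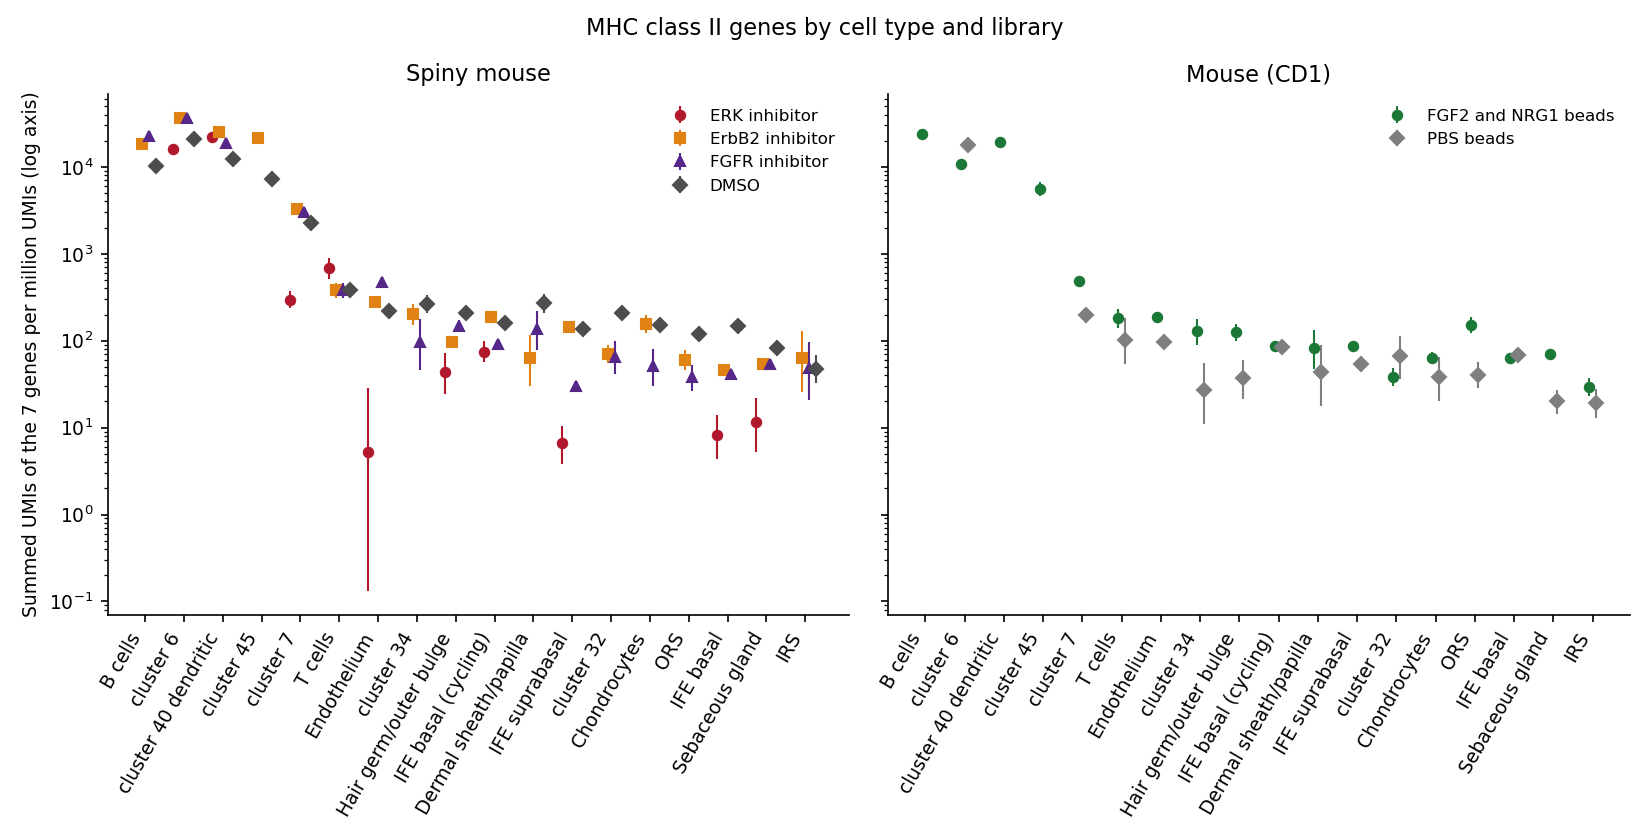
Summed level of the 7 MHC class II genes in CPM (log axis) in each cell type of at least 15 cells, spiny mouse left and mouse right. Each symbol is 1 library with its 95% Poisson interval (counting error only). The authors' type Unknown is not drawn. Cluster 6, the dendritic cells of cluster 40 and B cells lie between 10182 and 36888 CPM, far above the median of all types, at most 220 CPM.

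In cluster 6 the class II genes were higher in the ErbB2 inhibitor and FGFR inhibitor libraries than in DMSO, by about the same amount, and slightly lower in the ERK inhibitor library. On the log2 scale the summed genes differed from DMSO by 0.81 (0.78 to 0.83) with the ErbB2 inhibitor, 0.80 (0.77 to 0.83) with the FGFR inhibitor and -0.38 (-0.41 to -0.34) with the ERK inhibitor. The 3 comparisons share the DMSO library.

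H2-Aa, the alpha chain of the I-A molecule, had 4052 CPM in the ERK inhibitor library, 8619 with the ErbB2 inhibitor and 9495 with the FGFR inhibitor, against 4936 with DMSO. Cd74, the invariant chain that fills the peptide groove until the endosome, had 11355, 26270 and 24934 CPM with the ERK, ErbB2 and FGFR inhibitors, against 14758 with DMSO. H2-DMa, the alpha chain of the peptide exchanger, had 854, 1924 and 2244 CPM in the same order, against 1372 with DMSO. For all of these the ErbB2 and FGFR inhibitor libraries stood above DMSO and the ERK inhibitor library below it, with intervals that did not overlap.

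H2-Ab1, the beta chain of I-A, was sparse: 3 UMIs in the ERK inhibitor library, 44 with the ErbB2 inhibitor and 32 with the FGFR inhibitor, against 34 with DMSO. Its log2 ratios to DMSO were -1.56 (-4.28 to -0.26), 1.11 (0.44 to 1.81) and 1.21 (0.47 to 1.95), in the direction of the other genes but with wide intervals. Ciita had 0, 11 and 4 UMIs with the ERK, ErbB2 and FGFR inhibitors, against 12 with DMSO, too few to compare.

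A gene was counted as higher or lower at 1.5-fold and at least 30 UMIs over both libraries, which left 4 of the 7 genes. With the FGFR inhibitor 4 of 4 were higher, where 14.6% of all genes in cluster 6 were higher by this rule and 12.4% lower. For the ErbB2 inhibitor 3 of 4 were higher (12.3% of all genes, with 9.62% lower), and H2-DMa fell short at a log2 ratio of 0.49 (0.38 to 0.59). With the ERK inhibitor 2 of 4 were lower, H2-Ab1 and H2-DMa (-0.68, -0.85 to -0.52), where 21.1% of all genes were lower and 24.9% higher.

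The makeup of cluster 6 moved with these differences, and its part in them was not tested. Macrophage markers (11 genes) summed to 1618, 5536 and 6056 CPM with the ERK, ErbB2 and FGFR inhibitors, against 1737 with DMSO. Dendritic markers (11 genes) summed to 139, 640 and 834 CPM, against 528 with DMSO, and neutrophil markers (7 genes) to 11421, 196 and 147 CPM, against 469 with DMSO. The complement genes C1qa, C1qb or C1qc were found in 49.2% of the ErbB2 inhibitor cells and 49.6% of the FGFR inhibitor cells, against 22.0% of the DMSO cells, not thinned to equal depth. The median cell had 11980, 3717 and 4184 UMIs with the ERK, ErbB2 and FGFR inhibitors, against 2376 with DMSO. Keratinocyte markers took 0.0516%, 1.45% and 0.809% of UMIs with the ERK, ErbB2 and FGFR inhibitors, against 2.22% with DMSO.

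Split by marker, the direction stayed the same in every split that left at least 15 cells on each side. These splits were not thinned to equal depth, and median depth differed between the libraries. They therefore do not hold the makeup of the cluster fixed. The rule left out the cells with Cd207. These made up 0%, 11.8% (22 cells) and 8.70% (10 cells) with the ERK, ErbB2 and FGFR inhibitors, against 1.95% (8 cells) with DMSO. Among cells with C1q the summed class II genes had 36091 CPM with the ErbB2 inhibitor and 39164 with the FGFR inhibitor, against 17783 with DMSO. Among cells without C1q they had 37783 and 34170 CPM with the ErbB2 and FGFR inhibitors, against 22320 with DMSO. Cells with Cd209a, a lectin of monocyte-derived dendritic cells, were the higher ones in each of these libraries, at 53796 CPM with the ErbB2 inhibitor and 45910 with the FGFR inhibitor, against 30462 with DMSO. Over the splits the log2 ratio to DMSO ran between 0.48 and 1.02 with the ErbB2 inhibitor, between 0.49 and 1.14 with the FGFR inhibitor and between -0.83 and -0.15 with the ERK inhibitor.

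Set against other leukocyte RNA of the same cells the picture depended on the yardstick. Per 100 UMIs of 10 general leukocyte genes such as Ptprc (CD45), cluster 6 held 128 class II UMIs with the ERK inhibitor, 705 with the ErbB2 inhibitor and 578 with the FGFR inhibitor, against 468 with DMSO. Per 100 macrophage marker UMIs it held 1005, 666 and 607 with the ERK, ErbB2 and FGFR inhibitors, against 1215 with DMSO. The class II genes were thus higher than in DMSO per leukocyte transcript and lower per macrophage transcript in the ErbB2 and FGFR inhibitor libraries, and lower by both measures in the ERK inhibitor library. Per 100 dendritic marker UMIs there were 11728, 5765 and 4406 with the ERK, ErbB2 and FGFR inhibitors, against 3994 with DMSO. On this scale the ERK inhibitor difference took the opposite direction and the FGFR inhibitor difference shrank to 0.14 on the log2 scale.

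In mouse cluster 6 the class II genes were lower with FGF2 and NRG1 than with PBS, by -0.73 (-0.76 to -0.70) on the log2 scale for their sum. H2-Aa had 1850 CPM with FGF2 and NRG1 and 3304 with PBS, Cd74 5880 and 9996, and H2-DMa 261 and 418. H2-Ab1 had 1635 CPM with FGF2 and NRG1 and 2464 with PBS, H2-DMb1 263 and 429, and H2-Eb1, the beta chain of the I-E molecule, 962 and 1309. Every one of these was lower with the factors, with intervals that did not overlap.

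Ciita, the transactivator, had 55.2 CPM (147 UMIs) with FGF2 and NRG1 and 134 CPM (95 UMIs) with PBS, a log2 ratio of -1.28 (-1.66 to -0.89). The ratios of the 6 other genes ran from -0.84 (H2-Aa) to -0.45 (H2-Eb1), and the interval of Ciita overlapped those of H2-Aa (-0.91 to -0.77) and H2-DMb1 (-0.90 to -0.51) at its edge. By the 1.5-fold rule 6 of 7 genes were lower, where 9.33% of all genes in cluster 6 were lower and 11.4% higher, and H2-Eb1 fell short. The ratios of all genes and both species stand in the plot of cluster 6.

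**Figure D2:**
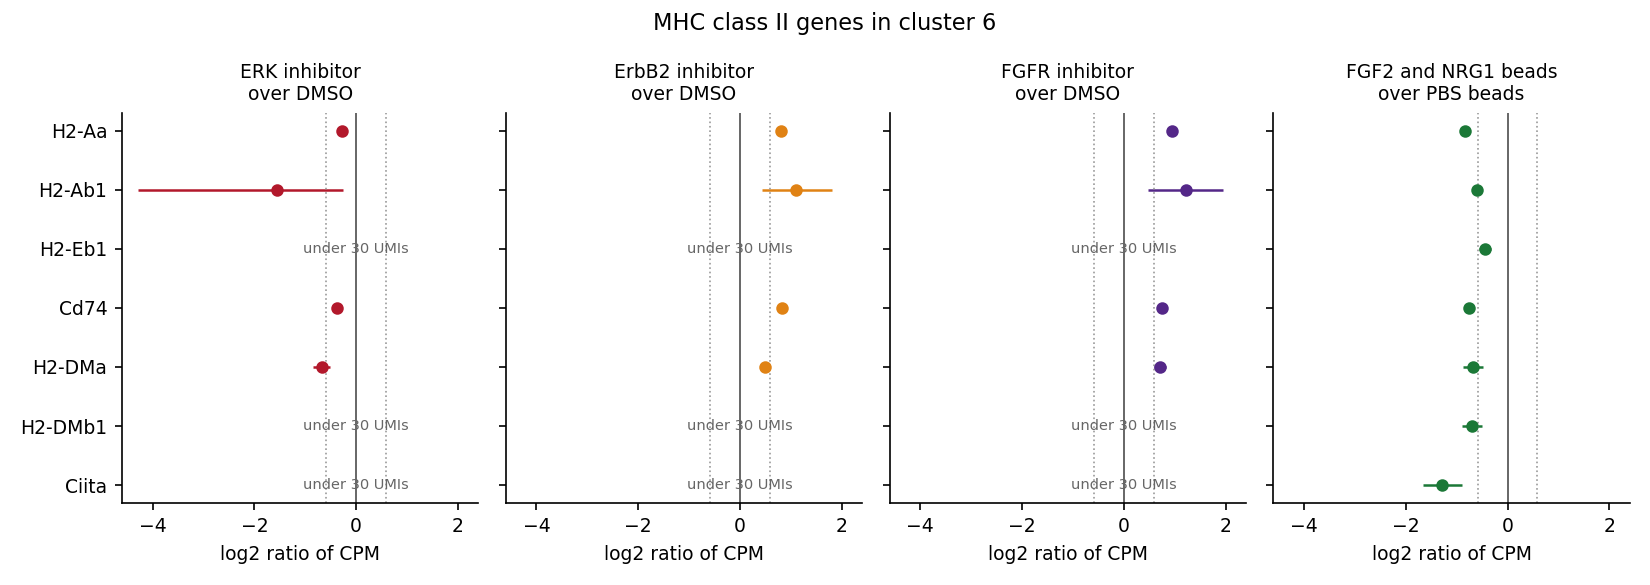
Log2 ratio of CPM in cluster 6 for each gene with at least 30 UMIs, in 4 comparisons from left to right, with 95% intervals (counting error only); dotted lines mark 1.5-fold. The points lie right of 0 with the ErbB2 and FGFR inhibitors, and left of it with the ERK inhibitor and with FGF2 and NRG1, where Ciita is farthest left at -1.28.

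Cells of mouse cluster 6 with a Ciita UMI carried more of the other class II genes. The 88 such cells of the FGF2 and NRG1 library had 28725 CPM of the other 6 genes, and the 478 without had 6717. The 33 such cells of the PBS library had 31311 CPM, and the 74 without had 9464. They made up 15.5% of the cluster with FGF2 and NRG1 and 30.8% with PBS, or 6.09% (4.26 to 8.41) and 10.7% (5.45 to 18.3) after each cell was thinned to 1000 UMIs. The thinned intervals overlap. Of basal keratinocytes, which should lack the gene, 0.909% with FGF2 and NRG1 and 0.796% with PBS had a Ciita UMI, and 0% in both libraries after thinning. Cells with a Ciita UMI were also deeper, with a median of 4974 UMIs against 4178 for those without in the FGF2 and NRG1 library, and 7205 against 5763.5 in the PBS library.

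Here too the makeup of the cluster moved with the class II genes, and its part was not tested. Macrophage markers summed to 10409 CPM with FGF2 and NRG1 and 8883 with PBS, and dendritic markers to 249 and 435 CPM. Per 100 macrophage marker UMIs there were 105 class II UMIs with FGF2 and NRG1 and 203 with PBS, and per 100 general leukocyte UMIs 103 and 185. Per 100 dendritic marker UMIs there were 4377 with FGF2 and NRG1 and 4154 with PBS, so that on this scale the libraries differed by 0.08 on the log2 scale. The median cell had 4292.5 UMIs with FGF2 and NRG1 and 6146 with PBS, so shares of cells with a marker UMI are not compared. In cells with a UMI of Flt3, Clec9a or Zbtb46, genes of conventional dendritic cells, the class II sum was 25640 CPM with FGF2 and NRG1 (52 cells) and 40293 with PBS (15 cells). In the remaining cells it was 8860 and 13319. These splits were not thinned to equal depth either. Over all splits with at least 15 cells on each side the log2 ratio ran between -1.14 and -0.39.

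Cell by cell, most cluster 6 cells held class II RNA, and the share without any differed between libraries. Thinned to 1000 UMIs, the median cell had 11 class II UMIs with the ERK inhibitor, 36 with the ErbB2 inhibitor and 38 with the FGFR inhibitor, against 20 with DMSO. The middle 50% of cells ran from 4 to 17, 24 to 59 and 22 to 52 in the inhibitor libraries, and from 10 to 30 with DMSO. No class II UMI remained in 21.2%, 2.16% and 8.11% of the ERK, ErbB2 and FGFR inhibitor cells, against 5.73% of the DMSO cells, and 57.6%, 90.3% and 84.7% had at least 10, against 75.5% with DMSO. In the mouse the median was 1.5 with FGF2 and NRG1 (middle 50% 0 to 10) and 5 with PBS (1 to 20). None remained in 38.4% of the FGF2 and NRG1 cells and 24.3% of the PBS cells, and 25.3% and 44.7% had at least 10. A few cells weighed heavily in the small library and in the mouse. In ERK inhibitor cluster 6, 1 cell held 20.8% of the class II UMIs, while in the other libraries the top cell held 1.53% to 8.34%. The top 10% of cells held 62.9% with FGF2 and NRG1 (57 cells) and 57.1% with PBS (11 cells). In the spiny mouse they held 39.0%, 23.4% and 25.3% with the ERK, ErbB2 and FGFR inhibitors, against 33.8% with DMSO.

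**Figure D3:**
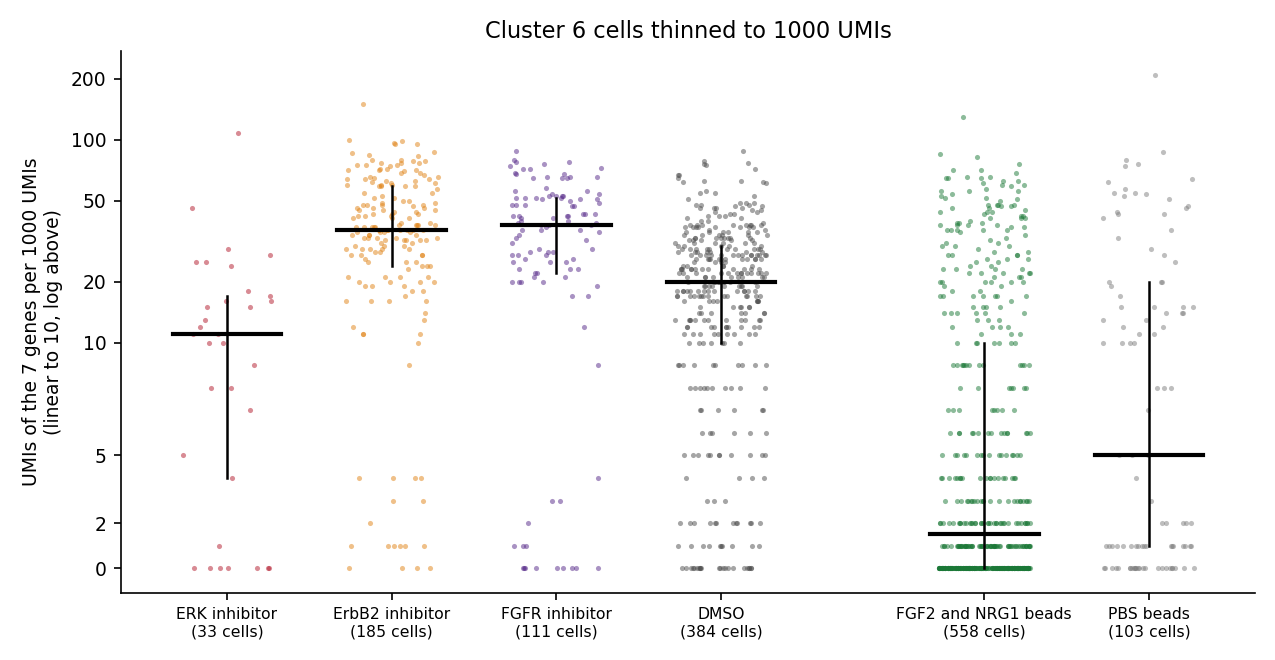
Class II UMIs of each cluster 6 cell after thinning to 1000 UMIs (axis linear to 10, log above), by library; thick bars are medians and thin bars the middle 50% of cells. ErbB2 and FGFR inhibitor cells centre on 36 and 38, DMSO cells on 20, and many mouse cells sit at 0.

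The pooled counts of the dendritic cells of cluster 40 held more class II RNA in every treated library than in its control. With the ERK inhibitor and in the mouse this rested on few cells. Their sum exceeded DMSO by 0.83 (0.76 to 0.90) with the ERK inhibitor, 1.03 (0.97 to 1.09) with the ErbB2 inhibitor and 0.60 (0.53 to 0.68) with the FGFR inhibitor on the log2 scale, and PBS by 1.10 (0.91 to 1.31) with FGF2 and NRG1. The last comparison rests on 38 and 14 cells, and 4 of the 38 held 58.4% of their class II UMIs. The ERK inhibitor library had 16 of these cells, and 2 of them held 37.8% of their class II UMIs. The median cells of the mouse libraries were alike, at 10989 CPM with FGF2 and NRG1 and 10800 with PBS. Thinned to 1000 UMIs, the median was 9 class II UMIs in both, over 25 and 9 cells, with 13 and 5 shallower cells left out. The spread differed, with a lower quartile of 1 with FGF2 and NRG1 and 5 with PBS, and means of 16.9 and 12.4. In the pooled counts Cd74 had 10460 CPM with FGF2 and NRG1 and 4498 with PBS, H2-Aa 4365 and 2457, H2-Ab1 2420 and 832, and H2-Eb1 1592 and 491. Ciita went the other way, with 90.2 CPM with FGF2 and NRG1 and 416 with PBS, from 11 UMIs in each library.

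The genes did not move as a block there. With the ERK inhibitor Cd74 had 20200 CPM against 10124 with DMSO, while H2-Aa had 1705 against 2100, so that 1 gene was higher and 1 lower (H2-DMa, 14 UMIs) of 3 measured, where 26.5% of all genes in these cells were higher and 19.8% lower. In the ErbB2 inhibitor library H2-Aa (4921 CPM against 2100) and Cd74 (20179 against 10124) were higher, 2 of 3 where 12.4% of all genes were higher and 9.94% lower. With the FGFR inhibitor H2-Aa alone passed at 3641 CPM against 2100, 1 of 3 where 13.3% of all genes were higher and 10.2% lower, and Cd74 had a log2 ratio of 0.57 (0.49 to 0.65). Dendritic markers moved alongside, at 2757, 1800 and 2191 CPM with the ERK, ErbB2 and FGFR inhibitors, against 1402 with DMSO. Per 100 dendritic marker UMIs the class II counts were 799, 1409 and 859, against 884 with DMSO, so that the ERK inhibitor difference changed sign and the FGFR inhibitor difference shrank to -0.04 on the log2 scale.

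B cells took class II counts from few and shallow cells. H2-Aa had 9997, 3466 and 4894 CPM with the ERK, ErbB2 and FGFR inhibitors, against 2500 with DMSO, and Cd74 25345, 14202 and 17081, against 7430 with DMSO. The DMSO library was lowest for both genes. By the 1.5-fold rule 2 of 3 genes were higher with the ErbB2 inhibitor (Cd74 and H2-DMa, where 15.7% of all genes in B cells were higher and 13.7% lower) and 3 of 3 with the FGFR inhibitor (13.8% higher and 16.5% lower). The 3 ERK inhibitor cells allow no count. B cell markers (12 genes) moved alongside, at 8308, 6810 and 7403 CPM with the ERK, ErbB2 and FGFR inhibitors, against 3923 with DMSO. Per 100 B cell marker UMIs there were 429, 267 and 305 class II UMIs, against 260 with DMSO, so the ErbB2 inhibitor and DMSO libraries then differed by 0.04 on the log2 scale.

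In the mouse B cells Cd74 had 15396 CPM with FGF2 and NRG1 and 20536 with PBS, H2-Aa 3353 and 3982, H2-Ab1 2335 and 2004, and H2-Eb1 2054 and 1874. The interval of the log2 ratio included 0 for every gene except Cd74 (-0.42, -0.56 to -0.28). Per 100 B cell marker UMIs there were 120 class II UMIs with FGF2 and NRG1 and 131 with PBS. Ciita, few as its UMIs were, was found in B cells as well, with 12 UMIs in the 28 cells with FGF2 and NRG1 and 7 UMIs in the 14 cells with PBS.

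In keratinocytes and endothelium a small share of cells held much of the class II RNA. In endothelium and the 3 interfollicular types pooled, its share of the cluster 6 level stayed below that of general leukocyte genes. This did not hold in every single type. With the ERK inhibitor cycling basal cells had 0.462% against 0.201% (51 of 53 UMIs in 1 cell), and hair germ and outer bulge 0.270% against 0.161%. The latter had 1.15% against 1.02% with FGF2 and NRG1. In the remaining libraries both types had the lower class II share. Over the 3 interfollicular types together the sum was 16.98 CPM with the ERK inhibitor, 123 with the ErbB2 inhibitor and 41.3 with the FGFR inhibitor, against 145 with DMSO, and 78.8 CPM with FGF2 and NRG1 against 64.7 with PBS. As a share of the library's own cluster 6 this was 0.104%, 0.333% and 0.112% in the inhibitor libraries, 0.687% with DMSO, 0.722% with FGF2 and NRG1 and 0.358% with PBS. General leukocyte genes in the same keratinocytes reached 0.419%, 1.19% and 0.928% of their cluster 6 level in the inhibitor libraries, 2.30% with DMSO, 1.43% with FGF2 and NRG1 and 1.03% with PBS, more than the class II genes in each library. In the spiny mouse libraries, DMSO was highest on both measures and the ERK inhibitor lowest. The leukocyte genes are not particular to cells with class II. With DMSO, cluster 7 had 127% of their cluster 6 level and 10.7% of the class II level, and T cells 68.0% and 1.80%. The contrast thus cannot place the class II level against RNA from outside the cell, which was not tested.

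Between 67.8% (DMSO) and 89.7% (ERK inhibitor) of these keratinocytes had no class II UMI. Thinned to 1000 UMIs, 10.8% (9.81 to 11.8) of basal DMSO keratinocytes had one, against 4.49% (1.24 to 11.1) in the IRS layer and 94.3% (91.5 to 96.4) in cluster 6 of that library. Cells with 10 or more class II UMIs were 1, 108 and 6 of 290, 5639 and 2519 keratinocytes in the ERK, ErbB2 and FGFR inhibitor libraries, 82 of 8457 with DMSO, 14 of 1024 with FGF2 and NRG1 and 12 of 1077 with PBS. These 0.238% to 1.92% of cells held 34.2% to 61.4% of the class II UMIs. The ERK inhibitor share was 1 cell of 71109 UMIs. Without such cells the level was 6.64, 65.5 and 27.3 CPM with the ERK, ErbB2 and FGFR inhibitors, against 78.6 with DMSO, and 44.9 with FGF2 and NRG1 against 31.9 with PBS.

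Except for the single ERK inhibitor cell, where the values were 56.3 and 53.1 CPM, the cells with many class II UMIs held more of the general leukocyte genes than the rest. General leukocyte genes summed to 281, 564 and 666 CPM in them in the ErbB2 inhibitor, FGFR inhibitor and DMSO libraries, against 56.8, 57.4 and 94.8 CPM in the remaining keratinocytes of the same libraries. In the mouse they summed to 366 CPM with FGF2 and NRG1 and 148 CPM with PBS, against 148 and 99.1 in the remaining keratinocytes. At least 1 macrophage marker UMI was found in 56.5% and 51.2% of them with the ErbB2 inhibitor and DMSO, and in 9.20% and 9.56% of the rest. In the mouse it was the other way, at 35.7% of them with FGF2 and NRG1, against 48.8% of the rest, and at 3 of 12 cells with PBS, against 45.8% of the rest. These shares were not thinned to equal depth. Keratinocytes with 10 or more class II UMIs had a median of 8729.5 UMIs with the ErbB2 inhibitor and 7016 with DMSO. The medians over all interfollicular keratinocytes of these libraries were 6322 and 4314. Whether the cells with many class II UMIs were doublets was not tested.

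In endothelium the share held by few cells differed between libraries. The class II sum was 5.18, 282 and 473 CPM with the ERK, ErbB2 and FGFR inhibitors, against 220 with DMSO, and 190 CPM with FGF2 and NRG1 against 96.8 with PBS. With the ErbB2 inhibitor 3 of 431 cells held 71.2% of the UMIs, with the FGFR inhibitor 2 of 240 held 79.7%, and with FGF2 and NRG1 7 of 940 held 56.8%, of which 1 cell had 373 UMIs. It was lower in the controls, where 8 of 977 cells held 32.8% with DMSO and 2 of 346 held 28.9% with PBS, and with the ERK inhibitor the 44 cells held 1 UMI. Without the cells of 10 or more UMIs the level was 82.1 CPM with the ErbB2 inhibitor and 98.2 with the FGFR inhibitor, against 151 with DMSO, so the order of these libraries turned round. In the mouse it was 83.1 CPM with FGF2 and NRG1 and 68.9 with PBS. Class II reached 0.0319% to 1.74% of the cluster 6 level and general leukocyte genes 0.531% to 3.65%, and within each library the leukocyte share was the larger. The limit given for keratinocytes holds here too, since the leukocyte genes are also high in types with little class II.

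**Figure D4:**
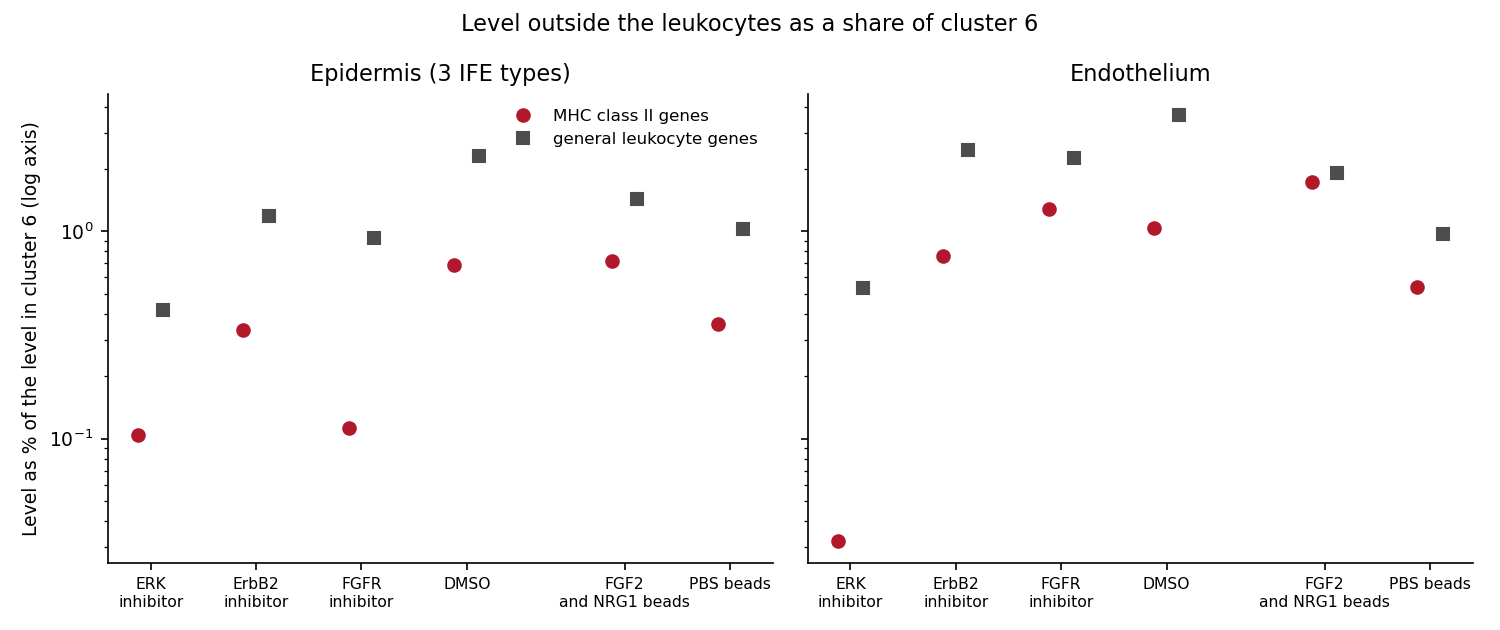
Level in the 3 interfollicular epidermal types together (left) and in endothelium (right) as a percent of the level in cluster 6 of the same library (log axis), for the 7 class II genes (circles) and 10 general leukocyte genes (squares). The circle lies below the square in every library and both tissues. The leukocyte genes are also high in cell types with little class II, such as cluster 7 and T cells.

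Pooled over libraries, the proportion between H2-Aa and Cd74 in the epidermis and endothelium was close to that of cluster 6, while the proportions of the H2-DM genes were not in several types. H2-Aa made up 25.6% (25.3 to 26.0) of the H2-Aa and Cd74 UMIs in spiny mouse cluster 6, 25.01% (24.3 to 25.8) in the epidermis and 23.0% (20.6 to 25.6) in endothelium, against 17.1% (16.5 to 17.6) in dendritic cells and 23.3% (21.9 to 24.7) in B cells. In the mouse it made up 24.2% (23.7 to 24.7) in cluster 6, 24.1% (21.4 to 26.8) in the epidermis and 23.4% (20.4 to 26.6) in endothelium, against 29.98% (28.0 to 32.1) in dendritic cells and 17.1% (15.5 to 18.8) in B cells. Pooled over the libraries of a species, the intervals of the epidermis and endothelium overlapped that of cluster 6, and dendritic cells stood below it in the spiny mouse and above it in the mouse. Hair germ and outer bulge stood above it in the spiny mouse, at 29.99% (26.5 to 33.6). Dendritic cells were not uniform, at 7.79% (6.85 to 8.81) with the ERK inhibitor (16 cells) against 17.2% with DMSO. With the ErbB2 and FGFR inhibitors they had 19.6% and 19.5%. In the mouse they had 29.4% with FGF2 and NRG1 (38 cells) and 35.3% with PBS (14 cells). Within single libraries 3 pairs of epidermis or endothelium with cluster 6 did not overlap. The epidermis with the FGFR inhibitor had 23.6% (20.9 to 26.5) against 27.6% (26.9 to 28.3) in cluster 6. The epidermis with DMSO had 26.8% (25.7 to 27.8) against 25.1% (24.5 to 25.6). The endothelium with PBS had 41.0% (30.01 to 52.7) against 24.8% (24.0 to 25.7).

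The H2-DM genes departed from this in several types, but in endothelium pooled over libraries their intervals overlapped cluster 6. Of its own and Cd74 UMIs, H2-DMa made up 5.56% (3.88 to 7.69) in mouse endothelium and 9.19% (7.46 to 11.2) in spiny mouse endothelium. H2-DMb1 made up 5.10% (3.49 to 7.16) in mouse endothelium. With PBS alone both lay above cluster 6 in endothelium, at 17.9% (8.91 to 30.4) for H2-DMa and 13.2% (5.48 to 25.3) for H2-DMb1. H2-DMb1 made up 4.23% (3.98 to 4.49) of its own and Cd74 UMIs in mouse cluster 6 and 0.4996% and 0.656% in dendritic and B cells. It made up 10.6% (8.66 to 12.9) in the epidermis, 19.7% (13.2 to 27.7) in sebaceous gland and 33.02% (24.2 to 42.8) in chondrocytes. H2-DMa made up 4.17% (3.92 to 4.44) in mouse cluster 6, 8.72% (6.90 to 10.8) in the epidermis and 25.3% (16.9 to 35.2) in chondrocytes.

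By library, H2-DMb1 made up 6.25% (4.09 to 9.09) of the pair in the epidermis with FGF2 and NRG1 and 14.5% (11.4 to 18.1) with PBS, against 4.28% (3.98 to 4.603) and 4.11% (3.67 to 4.59) in cluster 6. All 35 H2-DMb1 UMIs of chondrocytes came from the 248 cells of the FGF2 and NRG1 library, and the 36 cells with PBS had 0. In the spiny mouse H2-DMa made up 7.73% (7.52 to 7.95) in cluster 6, 8.39% (7.87 to 8.95) in the epidermis, 18.8% (15.7 to 22.2) in hair germ and outer bulge and 15.2% (10.5 to 20.9) in chondrocytes, against 1.10% in dendritic cells and 3.18% in B cells. Leukocytes outside the antigen-presenting clusters could be as high, with H2-DMa at 17.9% (14.1 to 22.3) in spiny mouse T cells and 9.92% (8.36 to 11.7) in cluster 7. The spiny mouse epidermis overlapped cluster 6, as did H2-DMa in mouse sebaceous gland, at 7.27% (3.19 to 13.8). The other intervals named here for the epidermis, hair germ, sebaceous gland and chondrocytes pooled over libraries lay above cluster 6, as the plot of proportions shows.

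**Figure D5:**
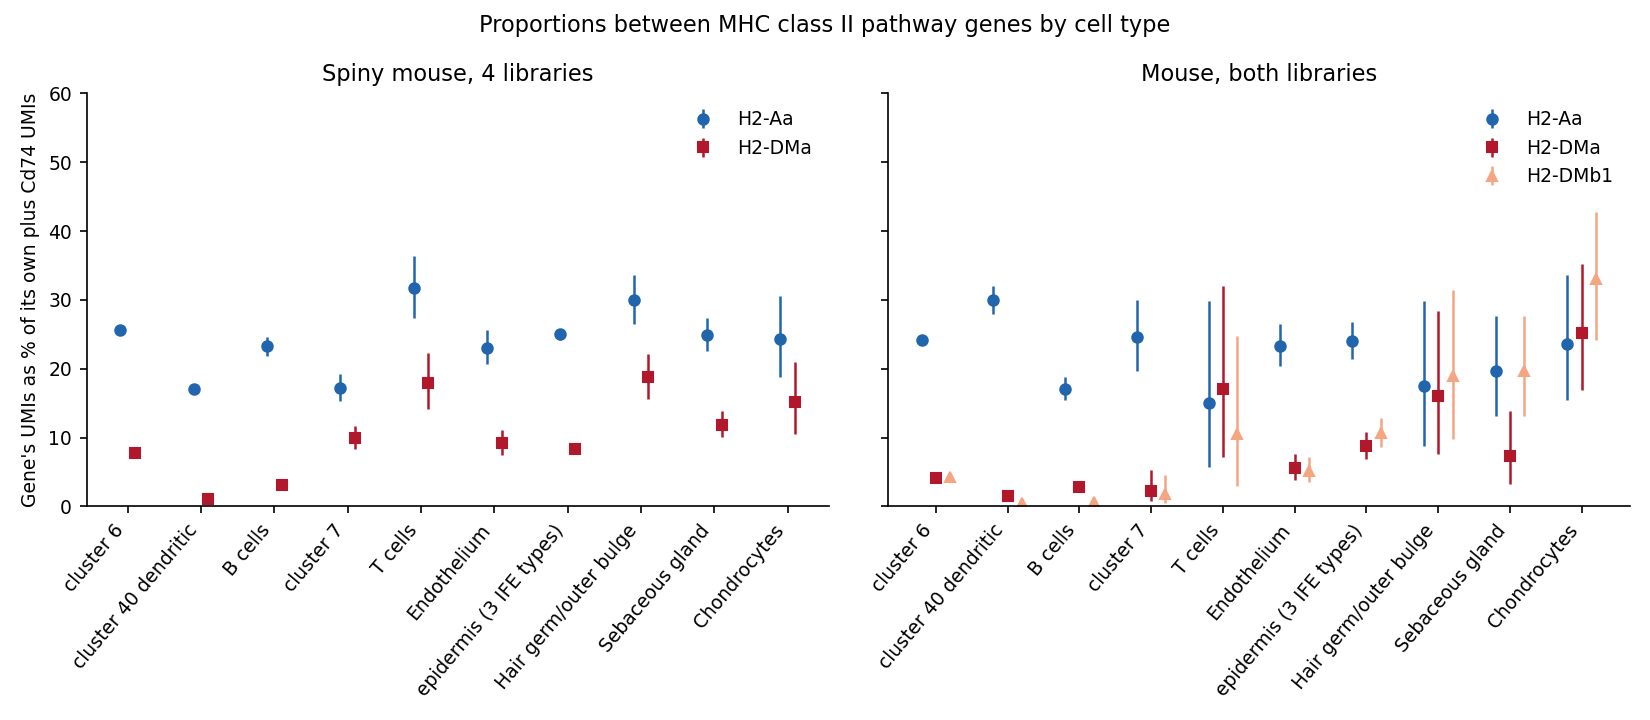
UMIs of H2-Aa, H2-DMa and H2-DMb1 as a percent of the gene's own plus Cd74 UMIs by cell type, pooled over the 4 spiny mouse libraries (left) and both mouse libraries (right), with 95% Clopper-Pearson intervals (counting error only). H2-Aa lies between 23.0% and 25.6% in cluster 6, epidermis and endothelium, while in mouse chondrocytes H2-DMa and H2-DMb1 reach 25.3% and 33.02%.

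Pooled over both libraries, the proportions between mouse class II chains also differed between some antigen-presenting types. H2-Ab1 made up 45.6% (44.8 to 46.5) of the H2-Ab1 and H2-Aa UMIs in cluster 6, 34.7% (31.6 to 37.9) in dendritic cells and 37.9% (33.8 to 42.1) in B cells. H2-Eb1 made up 32.4% (31.5 to 33.3) of the H2-Eb1 and H2-Aa UMIs in cluster 6, 25.7% (22.8 to 28.9) in dendritic cells and 35.5% (31.4 to 39.7) in B cells, where the interval included cluster 6. Dendritic cells lay below cluster 6 for both genes in each library alone. With FGF2 and NRG1, 4 of 38 dendritic cells held 58.4% of their class II UMIs. In that library the B cell interval for H2-Ab1 (35.6 to 46.6) overlapped cluster 6 (45.9 to 47.9). Cluster 6 itself differed between libraries, with H2-Eb1 at 34.2% with FGF2 and NRG1 and 28.4% with PBS, and H2-Ab1 at 46.9% and 42.7%. In cluster 7, annotated as circulating monocytes but rich in neutrophil markers, H2-Eb1 made up 62.0% (54.5 to 69.0).

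Of 21 other genes of the class II pathway, 19 were in the table, among them proteases of the lysosome. Lgmn, a lysosomal endopeptidase, had 200, 597 and 548 CPM with the ERK, ErbB2 and FGFR inhibitors, against 201 with DMSO, and 657 CPM with FGF2 and NRG1 against 229 with PBS. Ctss, the cathepsin that trims the invariant chain, had 2514, 1558 and 1348 CPM in the inhibitor libraries, against 863 with DMSO, and 2649 CPM with FGF2 and NRG1 against 1969 with PBS. Ctss was thus above control in all comparisons, while the class II genes themselves were below control in the ERK inhibitor and the FGF2 and NRG1 libraries.

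In the ErbB2 inhibitor library 6 of 12 measured pathway genes stood higher and 0 stood lower (all genes 12.3% and 9.62%; median log2 ratio 0.55, all genes 0.03): H2-DMb2 (0.63), Ctss (0.85), Lgmn (1.57), the costimulator Cd86 (1.08) and, from 20 UMIs each, the promoter-binding factors Rfx5 (0.82) and Rfxank (0.97). With the FGFR inhibitor 5 of 10 were higher and 1 lower (all genes 14.6% and 12.4%; median 0.59, all genes 0.05), among them H2-DMb2 (0.69), Cd86 (1.90) and the thiol reductase Ifi30 (0.60), and the lower one was Ctsl (-1.01), another lysosomal cathepsin. In the ERK inhibitor library 3 of 9 were higher and 2 lower (median 0.21, all genes 0.08), close to the 24.9% higher and 21.1% lower of all genes, the lower ones being Ctsl (-1.21) and H2-Oa (1 UMI against 33), a chain of the H2-O inhibitor of H2-DM. With FGF2 and NRG1 3 of 15 were higher and 3 lower (all genes 11.4% and 9.33%; median -0.20, all genes -0.01), the higher ones being Ctsl (0.98), Lgmn (1.51) and Rfxank (0.63, from 28 and 4 UMIs) and the lower ones H2-DMb2 (-1.44), the costimulator Cd80 (-0.96) and March1 (-0.62), a ubiquitin ligase that removes class II from the surface.

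Upstream of Ciita, Ifng, the gene of interferon gamma, was not analysed here. Ifngr1, its receptor's ligand-binding chain, had 569, 1300 and 995 CPM in cluster 6 with the ERK, ErbB2 and FGFR inhibitors, against 395 with DMSO, and 349 CPM with FGF2 and NRG1 against 426 with PBS. Irf1, an interferon-induced transcription factor, had a log2 ratio to DMSO of 2.12 (1.40 to 2.90) with the ERK inhibitor, from 40 UMIs and 27 UMIs. With FGF2 and NRG1 the transcription factor Irf8 was higher than with PBS (0.76, 0.57 to 0.98) and Irf4 was lower (-1.01, -1.94 to 0.09), the second with an interval that included 0.

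Class I genes, which present peptides from inside the cell, did not follow class II in the mouse. In cluster 6 H2-D1 had 2778 CPM with FGF2 and NRG1 and 1824 with PBS (log2 ratio 0.61, 0.52 to 0.69), H2-K1 983 and 703, and B2m, the light chain of class I, 1951 and 1366. All 7 class I genes had ratios above 0, with a median of 0.34, where the median of all genes was -0.01. By the 1.5-fold rule only 1 was higher, near the 11.4% of all genes that were higher. In the spiny mouse 3 of the 7 had enough UMIs, and H2-K1 had 82.7, 257 and 210 CPM with the ERK, ErbB2 and FGFR inhibitors, against 111 with DMSO, the order of libraries that Cd74 had, although the interval of the ERK inhibitor ratio included 0 (-1.02 to 0.12). B2m had a log2 ratio of 1.23 (1.14 to 1.32) with the ERK inhibitor and -0.07 (-0.17 to 0.03) with the ErbB2 inhibitor.

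Across cell types and libraries, several genes ran closely with the class II sum. Likeness was Pearson's r of log2(CPM + 10) over 67 library and cell type units in the spiny mouse and 35 in the mouse, among 10785 and 11774 genes with at least 200 UMIs. These units share libraries, depth and clusters, and r is given as a description. In the mouse the nearest were Ctss (0.94), Ly86 (0.94), Napsa (0.91) and Aif1 (0.90), followed by Pou2f2, Irf8, Cybb, Rnase6, Adgre1 and Cd72. In the spiny mouse they were H2-DMb2 (0.92), Itga4 (0.90), Rnase6 (0.89) and Lat2 (0.88), followed by Ctss, Ly86, Fermt3, Spi1, Btk and Arhgap30. Ctss, Ly86 and Rnase6 stood on both lists. Ciita itself reached 0.94 in the mouse, and 0.59 from its 38 UMIs in the spiny mouse. Of 7 factors that bind class II promoters, Rfx5, Rfxank, Rfxap, Nfya, Nfyb, Nfyc and Creb1, r ran from -0.25 (Rfxap) to 0.54 (Creb1) in the spiny mouse and from -0.39 (Rfxank) to 0.65 (Nfya) in the mouse.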

How the data were processed

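Cells came from 10x 3′ v3.1 libraries, per the labels' protocols. Cell Ranger 6.1.1 and mm10 (GRCm38) are named per the submitters' processing notes, and the reference used for spiny mouse reads is unknown here. The authors deposited raw UMI counts per gene and cell, with a cell table holding totals, clusters and cell type names. The percent of mitochondrial, haemoglobin and ribosomal UMIs per cell that the authors deposited was not used. All 39577 column sums equalled the deposited totals.

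Counts were summed by library and authors' cell type, with clusters 6, 32, 34 and 45 taken by cluster number, and scaled to CPM (Python 3.11.15, numpy 2.4.6, scipy 1.17.1, pandas 2.3.3, matplotlib 3.10.9). Intervals at 95% were exact Poisson for levels, Clopper-Pearson for shares and conditional binomial for ratios. Log2 ratios had 1 UMI added on each side, and types under 15 cells gave no gene counts. Thinning drew 1000 UMIs per cell and left out shallower cells. No cell filter was added and no doublet caller was run, since the cell table holds cells already annotated by the authors. The floor of a count of 0 was 3 counts. The ratio step was tested on simulated data. The genes, the lists and the comparisons were chosen with earlier results of these data known. Named genes were the 7 genes, pathway genes of fixed lists past 1.5-fold, and the 10 genes most like the class II sum. With 1 library per condition, 4 comparisons were described and none was tested. A gene of the interferon gamma list, and the counts over that list, are not reported here.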

Additional observations from a re-analysis of the deposited data

How the results depend on the processing

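No paired analysis was possible because each condition was 1 library. The alternatives were run for cluster 6 and B cells, where no difference in the class II sum changed direction except that of B cells with FGF2 and NRG1, which became 0.0037 without Cd74 (-0.28 as reported, -0.12 thinned, -0.11 without the deepest cell of each library). In cluster 6 the ERK inhibitor ratio to DMSO (-0.38) was -0.55 thinned to 1000 UMIs, -0.50 as a mean over cells, -0.46 centred on the median of all genes and -0.44 without cells over 5% keratinocyte markers. The ErbB2 inhibitor ratio (0.81) was 0.90, 0.97, 0.78 and 0.77 under these choices and 0.74 without Cd74. The FGFR inhibitor ratio (0.80) was 0.77 thinned, 0.75 centred and 0.90 without Cd74. The FGF2 and NRG1 ratio to PBS (-0.73) was -0.82 thinned, -0.81 as a mean over cells, -0.64 without the deepest cells and -0.68 without Cd74. In B cells the ERK inhibitor ratio (1.81) was 2.09 without the deepest cells, and the ErbB2 and FGFR inhibitor ratios (0.84 and 1.15) were 0.53 and 1.005 without Cd74. The causes were not tested.

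Over 197 alternative values of single genes, 0 changed the sign of a ratio that was past 1.5-fold as reported. Changes of sign of smaller ratios were not counted. Of the 197 values 30 moved beyond their counting interval, and 2 moved over 1.5-fold: H2-Ab1 with the ERK inhibitor as a mean over cells (-2.39) and H2-DMb1 with FGF2 and NRG1 thinned (-1.56), both in cluster 6. Small libraries limit the rest: 33 cells of cluster 6 and 3 B cells with the ERK inhibitor, and 14 B cells with PBS.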

Other observations

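Clusters 7 and 45 carried class II counts outside the main antigen-presenting types. In cluster 7, annotated as circulating monocytes, the class II sum was 298, 3320 and 3043 CPM with the ERK, ErbB2 and FGFR inhibitors, against 2266 with DMSO, and 486 CPM with FGF2 and NRG1 against 196 with PBS. Neutrophil markers there summed to 282041, 56788 and 57759 CPM with the ERK, ErbB2 and FGFR inhibitors, against 30982 with DMSO. Among the spiny mouse libraries the ERK inhibitor library had the most neutrophil RNA and the least class II. The rest did not follow this order: DMSO had the least neutrophil RNA but less class II than the ErbB2 and FGFR inhibitor libraries. In the mouse, neutrophil markers summed to 72478 CPM with FGF2 and NRG1 and 70851 with PBS.

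Cluster 45 held 29 cells with the ErbB2 inhibitor at 21606 CPM of class II genes, against 94 cells with DMSO at 7310 CPM. Mast cell markers summed to 1491 CPM in it with the ErbB2 inhibitor and 18925 CPM with DMSO, and macrophage markers to 1522 and 1004 CPM.

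T cells, which in mice hold little class II, had 684, 380 and 380 CPM with the ERK, ErbB2 and FGFR inhibitors, against 379 with DMSO, and 182 CPM with FGF2 and NRG1 against 103 with PBS. In the ERK inhibitor library 3 of 19 T cells held 63.2% of these UMIs, and without such cells of 10 or more UMIs the level was 306 CPM, against 379 with DMSO, which had no such cell.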
